A study of Mus musculus with 5 samples.

Results

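The comparison described here set a mouse testis in which Dmrt1 had been deleted with DHH-cre against a Cre-negative control testis. Its members are 2 of the 5 arrays of the series, chosen by their titles, and all 25631 transcripts measured on them. All 5 samples were total RNA of whole juvenile male testes at postnatal day 9, per the labels. The knockout was Cre-positive and carried the genotype labels DHH-cre and Dmrt1 KO. The control was Cre-negative, and its label gave NGN-cre as its genotype, so it was a control of the other line. A set of 3 further arrays came from Cre-positive Dmrt1 knockouts with NGN-cre, and they serve here as the measure of spread. The labels name the drivers only as DHH-cre and NGN-cre. They do not say in which cells each driver cuts, what strain was used, or whether testes of several animals were pooled. The series asked how expression in testes with a conditional deletion differed from that in controls.

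The product of Dmrt1 is a DM-domain transcription factor, which contacts DNA through a zinc-binding module, and in the mouse testis it is made in Sertoli cells and in germ cells before meiosis. Sertoli cells line the seminiferous tubules, feed the germ cells, and seal the tubule with tight junctions in the juvenile testis. Spermatogonia divide by mitosis at the tubule wall, and retinoic acid brings them into differentiation and then meiosis, which begins in the second postnatal week. The gene Dhh is transcribed in Sertoli cells, and Neurog3 in early spermatogonia.

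Values are linear intensities of a single-colour array, and all differences are log2 of the DHH-cre knockout minus the control, so that 1 is a doubling. Where the intensities of a gene follow each other, they run from the control to the range of the NGN-cre knockouts and then to the DHH-cre knockout, and the difference is in brackets. With 1 array on each side no test was possible, and no value has a replicate check. A transcript was counted as higher or lower when it differed at least 2-fold and by more than that transcript's range over the 3 NGN-cre arrays. For the 1064 olfactory receptor transcripts, taken as a background level, the median log2 value was 5.24, and a difference with either side near or below it is uncertain in size. Whole testes were measured, so fewer cells of a type and less RNA per cell cannot be told apart. The array numbers in the titles run close together for the control and the NGN-cre knockouts but not for the DHH-cre knockout, so array batch and genotype cannot be told apart.

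The 5 arrays had median intensities of 721 to 730. Pearson correlations of log2 values across all transcripts were 0.975 between the DHH-cre array and the control, 0.979 to 0.981 between it and the NGN-cre arrays, and 0.986 to 0.993 among the other 4. The olfactory receptor transcripts also spread more. The SD of their differences was 0.549 between the DHH-cre array and the control, 0.467 to 0.521 between it and the NGN-cre arrays, and 0.349 to 0.415 among the other 4. The labelled tissue was borne out by its markers on both arrays. Sox9 and Amh of Sertoli cells stood at 6432 and 6001 in the control and at 5367 and 4607 in the knockout, and Cyp17a1 of Leydig cells stood at 45782 and 44203. The protamine genes Prm1 and Prm2, which mark late spermatids, were dim on both, at 97.8 and 186 in the control and 97.3 and 180.3 in the knockout.

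Of the 17277 named genes, 1556 (9.01%) were counted, 838 (4.85%) as higher in the DHH-cre knockout and 718 (4.16%) as lower. Over all transcripts, 10.4% were counted, 5.55% as higher and 4.81% as lower. Of the 1064 olfactory receptor transcripts, taken as background, 27 (2.54%) were counted as higher and 41 (3.85%) as lower. Olfr39 (4.40) and Olfr20 (3.37), both dim in the control, were among the 15 largest differences towards higher values. The median difference over all transcripts was -0.02. Of the named genes, 47.9% had a higher value in the DHH-cre knockout than in the control and 52.1% a lower one. Of the 1422 transcripts counted as higher, 1307 had their highest value of the 5 arrays in the DHH-cre knockout, and of the 1232 counted as lower, 1173 had their lowest there. Over all transcripts, the DHH-cre array was the highest of the 5 for 29.0% and the lowest for 29.1%. Counting already set the DHH-cre value at least 2-fold from the control, so no conclusion is drawn from these shares. At least 8-fold differences were found for 45 transcripts that were higher and 38 that were lower. Counted transcripts were most frequent at middle intensities. Between a mean log2 intensity of 6 and 8, 8.23% were counted as higher and 7.71% as lower, and between 8 and 10 the shares were 8.26% and 6.99%, whereas above 12 the shares were 2.15% and 1.48%.

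**Figure D1:**
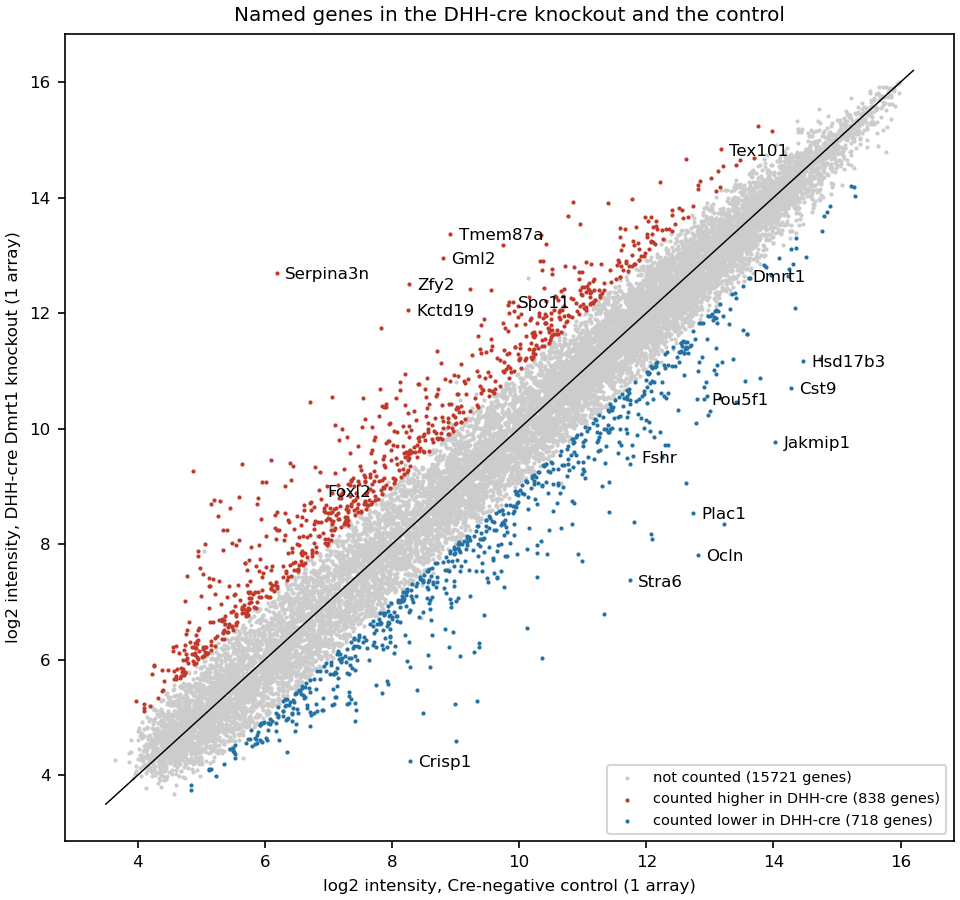
Log2 intensity of each named gene in the Cre-negative control (x axis, 1 array) and in the DHH-cre Dmrt1 knockout (y axis, 1 array), with the line of equal values. Red points are the 838 genes counted as higher in the knockout, blue points the 718 counted as lower, and grey points all others. Serpina3n lies farthest above the line and Ocln far below it, while Dmrt1 is close to it.

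Dmrt1 itself had an intensity of 11847 in the control and 6416 in the DHH-cre knockout, which is 54.2% of the control. The NGN-cre knockouts gave 4884, 5644 and 5509. All 4 knockout values lay below the control, and the DHH-cre value was the highest among them. The difference of -0.88 did not reach 2-fold. The files used here do not place the probes relative to the deleted part of the gene, so the value is a limited check of the label.

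Among the 8 measured DM-domain genes, 1 was counted as higher and 4 as lower. Dmrtc2, a germ cell member of the family, stood at 1458 in the control, 6970 in the DHH-cre knockout and 3100 to 5089 in the NGN-cre knockouts, a difference of 2.26. The DHH-cre array was the highest of the 5. Dmrta1 was lower, at 1159 against 3874 (-1.74), as were Dmrt2 at 108 against 270.3 (-1.32) and Dmrtc1a at 2193 against 4957 (-1.18). The NGN-cre values were 1633 to 2669 for Dmrta1, 145 to 317 for Dmrt2 and 2344 to 3558 for Dmrtc1a. For Dmrtc1a the dimmer row of the array gave -4.00, so its rows disagree in size. Dmrtc1b, its near copy, differed by -1.07, and its NGN-cre values of 152 to 208 lay below the DHH-cre value of 257.

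DM-domain proteins are known to bind DNA at a palindromic core, searched here as ACANTGT, which is its own reverse complement. Promoters of 300 bases, from 250 before to 50 after the transcript start, were read from RefSeq on GRCm38.p6 for 13821 named genes. The core ACANTGT was present in 5.63% of all of these promoters, in 38 of 661 (5.75%) among genes counted as higher and in 35 of 545 (6.42%) among genes counted as lower. The cyclic AMP response element TGACGTCA, read on both strands, was present in 2.47%, 2.12% and 2.02%. By list, the DM core was present in 2 of 13 promoters of Sertoli product genes, 1 of 12 of synaptonemal complex genes and 0 of 12 of recombination genes. The promoters of 4 genes described below are shown as examples from the Sertoli cell, retinoid and meiotic lists, and they were chosen with the matches known, so the number holding the core says nothing about the lists. They are written 5′ to 3′ in the direction of the gene, with each match to the DM core in capitals.
Fshr, chr17:89200626-89200925, minus strand: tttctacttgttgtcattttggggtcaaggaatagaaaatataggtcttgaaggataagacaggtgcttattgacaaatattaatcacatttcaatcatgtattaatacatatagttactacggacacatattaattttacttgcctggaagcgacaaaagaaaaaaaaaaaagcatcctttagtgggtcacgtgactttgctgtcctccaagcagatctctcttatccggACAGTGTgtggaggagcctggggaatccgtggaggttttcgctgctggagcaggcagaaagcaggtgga
Stra6, chr9:58128838-58129137, plus strand: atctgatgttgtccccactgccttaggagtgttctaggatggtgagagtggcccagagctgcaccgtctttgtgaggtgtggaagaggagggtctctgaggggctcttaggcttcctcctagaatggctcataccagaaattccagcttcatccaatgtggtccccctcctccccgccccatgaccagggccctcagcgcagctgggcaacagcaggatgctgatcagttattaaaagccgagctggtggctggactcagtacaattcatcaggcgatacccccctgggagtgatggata
Stra8, chr6:34920698-34920997, plus strand: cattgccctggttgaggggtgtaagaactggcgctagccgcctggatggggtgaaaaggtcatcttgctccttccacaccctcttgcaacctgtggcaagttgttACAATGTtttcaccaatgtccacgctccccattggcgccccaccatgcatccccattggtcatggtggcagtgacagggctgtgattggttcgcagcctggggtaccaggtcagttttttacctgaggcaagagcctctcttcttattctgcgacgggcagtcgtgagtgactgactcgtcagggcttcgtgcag
Morc2b, chr17:33148700-33148999, minus strand: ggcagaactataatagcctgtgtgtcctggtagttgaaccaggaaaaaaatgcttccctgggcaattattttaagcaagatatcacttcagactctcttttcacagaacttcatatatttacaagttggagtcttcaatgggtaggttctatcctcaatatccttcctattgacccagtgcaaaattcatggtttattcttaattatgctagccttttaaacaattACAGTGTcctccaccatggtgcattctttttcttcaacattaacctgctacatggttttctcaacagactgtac
The match began 145 bases before the start in Stra8, a gene induced by retinoic acid at meiotic entry, 19 bases before it in Fshr, the receptor of follicle-stimulating hormone, and 24 bases before it in Morc2b, a meiotic prophase gene. The Stra6 window held none. A match is a description of letters and not of binding.

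Genes for Sertoli cell products were lower in the DHH-cre knockout. All 20 measured genes of the list had a lower value than in the control, against 52.1% of all named genes, with a median of -0.52. Of the 20, 6 (30.0%) were counted as lower, against 4.16% of all named genes. The list was also lower on the NGN-cre arrays, with medians against the same control of -0.29, -0.42 and -0.27. Cst9, a cystatin family gene of Sertoli cells, stood at 19740.1 in the control, 12645 to 15872 with NGN-cre and 1675 with DHH-cre, an 11.8-fold difference. The DHH-cre array lay far below the other 4. Defb36, a beta-defensin gene, stood at 10832 in the control, 8006 to 10768 with NGN-cre and 1409 with DHH-cre (-2.94). Fshr, whose promoter is shown above, had 3528 in the control, 2061, 2249 and 2158 with NGN-cre and 734 with DHH-cre, where it was 20.8% of the control. All 4 knockout arrays were below the control for Fshr, and the DHH-cre array was the lowest. Defb19 at -1.49, the protease inhibitor gene Serpina5 at -1.48 and the X-linked gene Tsx at -1.39 were the remaining counted members. For Tsx the NGN-cre knockouts gave 890, 660 and 871, against 669 in the DHH-cre knockout and 1746 in the control, so the DHH-cre value lay within their range.

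Several further Sertoli cell genes stayed within 2-fold. Clu, which encodes the abundant secreted protein clusterin, had 56008 in the control and 28356 in the DHH-cre knockout, just inside the threshold at -0.98. Inha, the inhibin alpha subunit gene, differed by -0.07, Amh by -0.38 and Trf, which encodes transferrin, by -0.24. Of 13 Sertoli cell transcription factor genes, 1 (7.69%) was counted as lower, against 4.16% of named genes, and none as higher. It was Sox8, a partner of Sox9 in Sertoli cells, at 1963 against 4158 (-1.08), with 3157 to 3683 in the NGN-cre knockouts. Sox9 differed by -0.26. Dhh had 3104 in the control and 3682 in the DHH-cre knockout, a difference of 0.25. The list of 9 androgen-responsive Sertoli cell genes was divided. Ppl, the periplakin gene, stood at 1759 against 345 (2.35) and the formin gene Fhod3 at 1767 against 568 (1.64). The dopamine receptor gene Drd4 stood at 581 against 1718 (-1.56) and the protease inhibitor gene Eppin at 7369 against 20268 (-1.46). The NGN-cre knockouts gave 514 to 752 for Ppl, 1255 to 1631 for Fhod3, 616 to 1220 for Drd4 and 7372 to 14270 for Eppin. Every one of these values lay between the control and the DHH-cre knockout.

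Among junction genes, Ocln, which encodes the tight junction protein occludin, had the largest difference towards lower values of any named gene. Its intensity was 7212 in the control, 4938, 4074 and 4770.5 with NGN-cre and 226 with DHH-cre, a 32.0-fold difference. The DHH-cre value stood far below all others, and the NGN-cre values lay somewhat below the control. Of 27 junction genes 4 (14.8%) were counted as lower, against 4.16% of named genes, and none as higher. The median was -0.32, or -0.19 with a pseudocount of 50, under which Cldn1 no longer reached 2-fold. Gja1, which encodes the gap junction protein connexin 43, stood at 11739 in the control, 5826 to 7681 with NGN-cre and 3324 with DHH-cre (-1.82). Cldn1, which encodes a claudin, differed by -1.04 and F11r, which encodes a junctional adhesion molecule, by -1.01. Cldn11, the principal claudin of the Sertoli cell barrier, had a difference of -0.87, and the scaffold gene Tjp1 one of -0.01. These last 2 were chosen for mention after their values had been seen.

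Among retinoid genes, Stra6 and Lrat, of uptake and storage, had the largest differences. Stra6, which encodes the cellular receptor for retinol bound to its plasma carrier, stood at 3416 in the control, 2532, 2425 and 1326 with NGN-cre and 166 with DHH-cre, a 20.6-fold difference. The DHH-cre value lay well below the lowest NGN-cre value. Lrat, which encodes the enzyme that stores retinol as esters, had 2407 in the control, 2018 to 2668 with NGN-cre and 894 with DHH-cre (-1.43). Adh7, an alcohol dehydrogenase gene, was dim on both arrays, at 87.5 and 35.9. These were the 3 of 28 retinoid genes (10.7%) counted as lower, against 4.16% of named genes, and none was counted as higher. The list's median was -0.11.

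Genes of ovarian somatic cells showed little common direction. The transcription factor gene Foxl2, which marks granulosa cells and maintains them in the adult ovary, had 116 in the control, 108, 173 and 114 with NGN-cre and 488 with DHH-cre. The DHH-cre value was 4.21-fold higher and lay above all others. Of the 21 genes on the granulosa list it was the only member counted as higher, whereas the reelin receptor gene Lrp8 (-1.42) and the activin subunit gene Inhba (-1.07) were counted as lower. The estrogen receptor gene Esr2 stood at 1365 against 834 (0.71). The aromatase gene Cyp19a1 stood at 82.6 against 47.0 (0.81) and the follistatin gene Fst at 762 against 542 (0.49), and none of these 3 reached 2-fold. The shares counted were 4.76% as higher and 9.52% as lower, against 4.85% and 4.16% of named genes. The list's median was 0.15, and -0.03 when transcripts dim on both arrays were left out.

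In the Leydig cell list of 21 genes, enzymes of androgen synthesis went both ways, with a median of 0.07. Hsd17b3, which encodes the enzyme of the last step to testosterone, stood at 22500.3 in the control, 17773, 20009 and 31106 with NGN-cre and 2305 with DHH-cre, 9.76-fold lower than the control. Hsd3b6, a 3-beta-hydroxysteroid dehydrogenase gene of Leydig cells, stood at 1042 in the control, 1237 to 1570 with NGN-cre and 4046 with DHH-cre, 3.88-fold higher. These were the only counted members, which is 4.76% each way, against 4.85% of named genes counted as higher and 4.16% as lower. Insl3, which encodes a Leydig cell hormone, was 6991 against 3667 (0.93), Cyp11a1 differed by 0.59, Star by -0.11 and Cyp17a1 by -0.05. Of the 17 hedgehog signalling genes none was counted, with -0.99 for both Hhip and Scube1 as the largest differences. Of the 19 somatic growth factor genes, Inhba alone was counted.

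**Figure D2:**
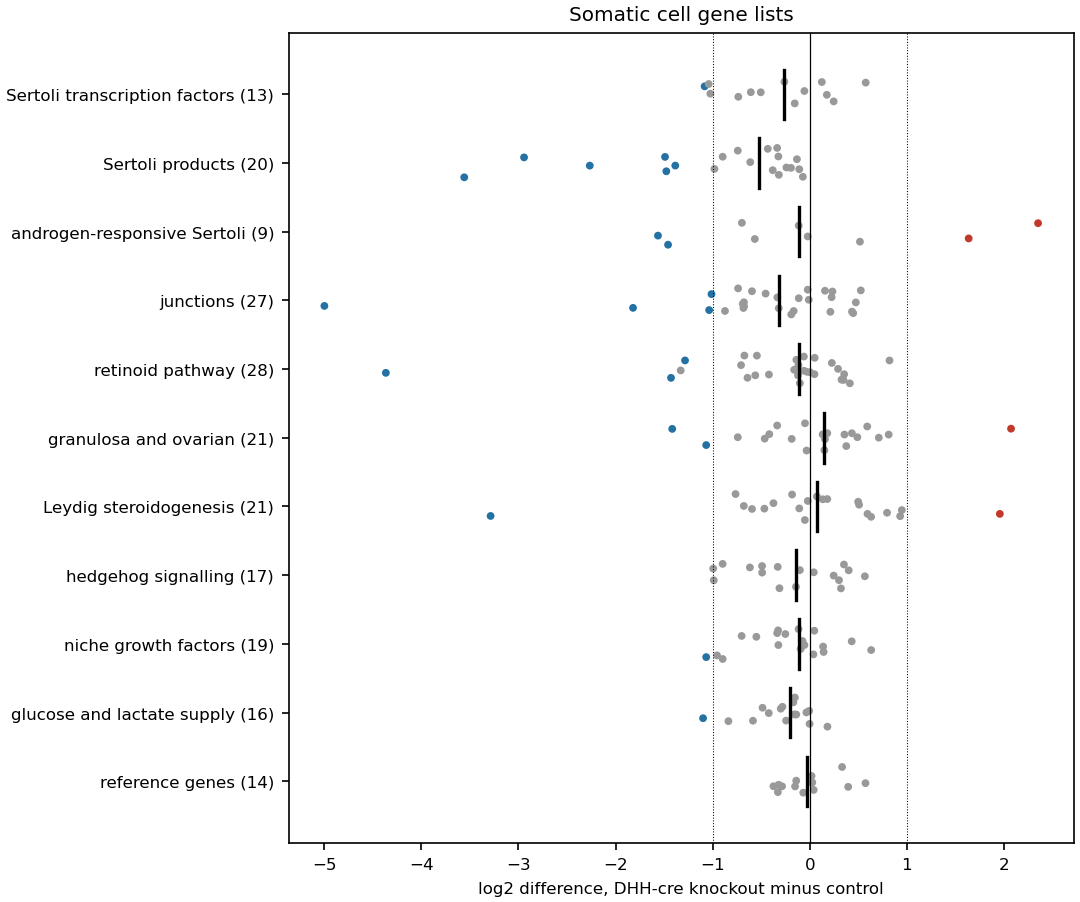
Log2 difference of each measured gene, DHH-cre knockout minus control (x axis), in 11 lists of somatic genes (y axis, number measured in brackets). Blue points are counted as lower, red points as higher, and grey points are not counted. The black bar is the list's median and dotted lines mark 2-fold. All 20 Sertoli product genes lie below 0, Ocln and Stra6 lie farthest to the left, and the 14 reference genes lie within 2-fold.

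Genes of undifferentiated spermatogonia, the stem and progenitor cells of the male germ line, were lower in the DHH-cre knockout. Of 29 measured, 27 had a lower value, 16 (55.2%) were counted as lower and none as higher, with a median of -1.07. Of all named genes, 52.1% had a lower value and 4.16% were counted as lower. The medians of the same list on the NGN-cre arrays, against the shared control, were -0.20, -0.24 and -0.28. Neurog3, a transcription factor gene of early progenitors, stood at 2610.3 in the control, 1674 to 2277 with NGN-cre and 675 with DHH-cre (-1.95). Sall4, a zinc finger gene of spermatogonia, stood at 5165 in the control, 2686 to 3955 with NGN-cre and 1567 with DHH-cre (-1.72). In both genes all 4 knockout values were below the control and the DHH-cre value was the lowest.

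The 2 receptor genes for the growth factor GDNF were among the counted members. Ret had 697 in the control, 516 to 619 with NGN-cre and 233 with DHH-cre (-1.58), and its co-receptor gene Gfra1 had 4837, 2846 to 3984 and 1794 (-1.43). Gdnf itself, made by Sertoli cells, differed by -0.90 and was not counted. The T gene, which encodes brachyury, differed by -2.92 with a DHH-cre value near background (-2.03 with a pseudocount of 50), the tetraspanin gene Tspan8 by -2.29, the neurofilament gene Nefm by -1.93 and the immediate early gene Egr4 by -1.78. Nanos3, an RNA-binding regulator, was at -1.55. Zbtb16, which encodes PLZF, stood at 30351 in the control, 19042 to 26169 with NGN-cre and 14865 with DHH-cre (-1.03). The Ets factor gene Etv5, a target of GDNF signalling, went the other way at 0.30. It and Gdnf were named after their values had been seen.

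Genes of differentiating spermatogonia had a median of -0.32 over 10 genes. Stra8 was counted as higher, at 2119.7 in the control, 3730.5, 5133 and 2774 with NGN-cre and 4274 with DHH-cre, a difference of 1.01 that was just under 2-fold with a pseudocount of 50. All 4 knockout arrays were above the control, and the DHH-cre value lay within the NGN-cre values. The protease gene Prss50 was higher, with 4162 in the control, 3651 to 6277 with NGN-cre and 12354 with DHH-cre (1.57).

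Meiotic genes were higher in the DHH-cre knockout. Of the 13 genes of the synaptonemal complex and chromosome axis, which pair homologous chromosomes, 12 had a higher value, 7 (53.8%) were counted as higher and none as lower, with a median of 1.06. Among named genes 47.9% had a higher value and 4.85% were counted as higher. The list's medians on the NGN-cre arrays, against the same control, were 0.72, 0.85 and 0.35. Sycp1, of the transverse filaments of the complex, stood at 13796 in the control, 23820.2 to 27599 with NGN-cre and 38543 with DHH-cre (1.48). Sycp3, of the lateral elements, stood at 16092, 20461 to 30859 and 36243 (1.17). The axis gene Hormad1 stood at 4059, 6185 to 9480.1 and 13004 (1.68). In these 3 genes every knockout array exceeded the control and the DHH-cre array was the highest. Terb1, which ties telomeres to the nuclear envelope in meiosis, differed by 2.49 from a control value near background (48.2), and Kash5, of the same link, by 1.73.

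Of 16 meiotic recombination genes, 15 had a higher value and 6 (37.5%) were counted as higher, against 4.85% of named genes. The median was 0.60, and it was 0.32, 0.54 and 0.21 on the NGN-cre arrays against the same control. Spo11, which makes the DNA breaks that start recombination, stood at 917 in the control, 1922, 1909 and 1484 with NGN-cre and 4704 with DHH-cre, a 5.13-fold difference. Hfm1, a helicase gene of crossover formation, stood at 751, 1679.9 to 2719 and 5413 (2.85). Dmc1, the meiotic recombinase, had 1674 in the control, 3332 to 4466 with NGN-cre and 5454 with DHH-cre (1.70). The crossover genes Msh5 and Msh4 differed by 2.51 and 2.15. For each of these genes the DHH-cre array was the highest of the 5.

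Regulators of meiotic entry and progress were counted as higher in 7 of 14 cases, with a median of 0.83. Kctd19, a gene of meiotic prophase, stood at 306 in the control, 1146, 980.1 and 429 with NGN-cre and 4247 with DHH-cre, a 13.9-fold difference. Morc2b had 138 in the control, 113 to 149 with NGN-cre and 1067 with DHH-cre (2.95), so that the DHH-cre array alone stood apart. Mybl1, which encodes the transcription factor A-MYB of pachytene spermatocytes, stood at 296, 722 to 979 and 1968 (2.73). The remaining counted members were Dmrtc2, Prss50, Boll (1.03) and Stra8. Among 20 general germ cell genes the median was 0.36, with 4 (20.0%) counted as higher. Of these, Tex101, a germ cell surface protein gene, stood at 9258 in the control, 15945 to 21581 with NGN-cre and 29169 with DHH-cre (1.66). The list of 15 piRNA pathway genes had a median of 0.21, and 1 (6.67%) was counted as higher, the tudor-domain gene Rnf17 (1.36).

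**Figure D3:**
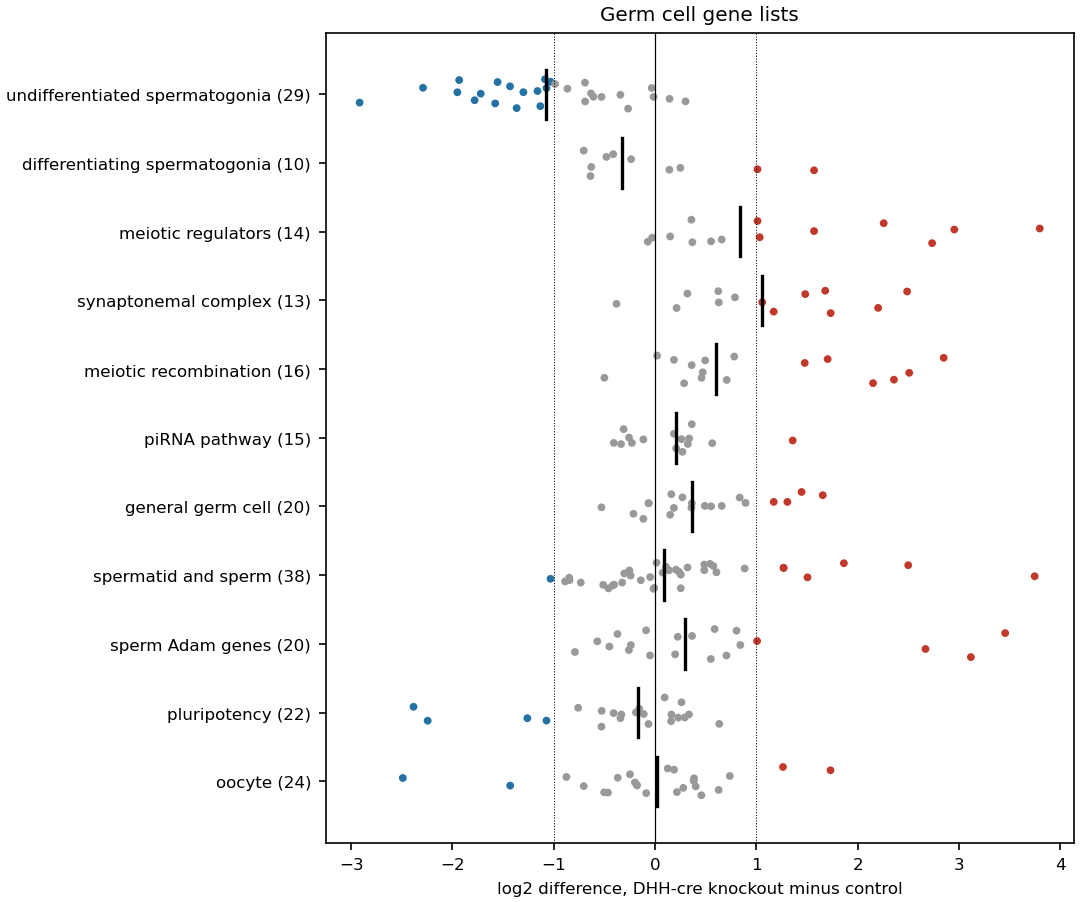
Log2 difference of each measured gene, DHH-cre knockout minus control (x axis), in 11 lists of germ cell genes (y axis, number measured in brackets). Blue points are counted as lower, red points as higher, and grey points are not counted. The black bar is the list's median and dotted lines mark 2-fold. The undifferentiated spermatogonia list lies mostly below 0 with a median of -1.07, and the synaptonemal complex list mostly above 0 with a median of 1.06.

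Genes of spermatids and sperm were mixed. Of 38, 6 (15.8%) were counted as higher and 1 (2.63%) as lower, against 4.85% and 4.16% of named genes, and the median was 0.09. Akap3, a sperm tail scaffold gene, stood at 184 in the control, 216 to 575 with NGN-cre and 1042 with DHH-cre, a 5.65-fold difference. Catsper2, of the sperm calcium channel, stood at 758, 783 to 1049.8 and 2760.4 (1.86). Pdcl2, a phosducin-like gene, differed by 3.75 from a control value of 49.7, near background. The acrosome genes Zpbp2 (2.84-fold), Zpbp (2.41-fold) and Spaca1 (2.41-fold) were higher, and the sperm fusion gene Izumo1 was lower at -1.03. Prm1, Prm2 and Tnp1, the genes of protamines and a transition protein, differed by -0.01, -0.05 and -0.02.

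Sperm Adam genes encode membrane proteases and adhesion proteins. Of 20, 4 (20.0%) were counted as higher and none as lower, against 4.85% and 4.16% of named genes. Adam2, of the sperm surface protein fertilin, stood at 39.2 in the control, 30.5 to 69.0 with NGN-cre and 430.1 with DHH-cre, and Adam18 at 62.0, 49.5 to 99.3 and 538 (3.12). Adam30, with a control value of 27.5, below the olfactory receptor median, differed by 2.67, and Adam32 by 1.01. For Adam2 and Adam18 the other 4 arrays were close together near background, and the DHH-cre array alone was bright. With a pseudocount of 50 the difference of Adam2 was 2.43, that of Adam18 2.39 and that of Adam30 1.54, and Adam32 was under 2-fold.

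The axoneme is the microtubule core of cilia and sperm tails, and its list of 38 genes was drawn up with the values known. Of these, 15 (39.5%) were counted as higher and 1 as lower, with a median of 0.53. On the NGN-cre arrays the list's medians against the same control were 0.46, 0.33 and 0.07. Rsph1, of the radial spokes, stood at 1467 in the control, 1004 to 2501 with NGN-cre and 6527 with DHH-cre (2.15). Tcte3, a dynein light chain gene, stood at 953, 1343 to 2084 and 4685 (2.30). Lrrc6, needed for dynein assembly, differed by 2.55 but was brighter still on 1 NGN-cre array, at 2279 against 1634. Iqcg and Pih1d2 each differed by 2.03. Hydin, of the central pair, was lower at -1.34. By symbol, 5 of 17 Cfap genes and 3 of 9 Catsper genes were counted as higher and none of either as lower. Of 96 Ccdc genes 7 (7.29%) were counted as higher and 2 as lower, and of 15 Ift genes 2 and 1. These 4 families were picked out after the values had been seen. Of 3 Dnah genes none was counted. Among named genes, 4.85% were counted as higher and 4.16% as lower.

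The Magea genes, an X-linked family active in germ cells, were higher throughout. All 7 measured members had a higher value, and 6 were counted, with a median of 1.33. Magea4 stood at 1314 in the control, 3281 to 4461 with NGN-cre and 6839 with DHH-cre (2.38). Magea2 stood at 4304, 11605 to 15341 and 12953 (1.59), so its DHH-cre value lay within the NGN-cre values. Members of this family are alike in sequence, and the probes may not tell them apart. Of 15 genes of the X-linked Rhox homeobox cluster, 3 (20.0%) were counted as higher and 1 (6.67%) as lower, against 4.85% and 4.16% of named genes. Rhox3f (5.60-fold), Rhox3a (4.26-fold) and Rhox11 (2.83-fold) were higher and Rhox12 was 2.82-fold lower. In the control, Rhox3f and Rhox3a were near background.

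Y-linked genes such as Zfy2 and the multicopy Y genes Sly, Ssty1 and Ssty2 lay on opposite sides of the control. All 9 genes of the Y-linked list had a higher value and 4 (44.4%) were counted as higher, against 4.85% of named genes. The list's median was 0.42, and it was 0.40, 0.25 and 0.36 on the NGN-cre arrays against the same control. Zfy2, a zinc finger gene active in spermatocytes, stood at 309.5 in the control, 1276, 1446 and 625 with NGN-cre and 5835 with DHH-cre, an 18.9-fold difference, and its close copy Zfy1 stood at 1330.1, 1656 to 2939 and 7626 (2.52). The probes may not tell this pair apart. Usp9y, a deubiquitinase gene, differed by 1.45 and Ddx3y, an RNA helicase gene, by 1.01. A list of 4 multicopy Y genes, written after the values had been seen, had 3 members counted as lower. Sly stood at 172 in the control, 173 to 211 with NGN-cre and 35.0 with DHH-cre, Ssty2 at 892, 753 to 1326 and 296 (-1.59), and Ssty1 at 619, 593 to 846 and 239 (-1.37). For all 3 the DHH-cre value lay below the other 4 arrays, and their copies may share probes. Rbmy, an RNA-binding protein gene on both lists, differed by 0.20.

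Among pluripotency genes, 4 of 22 (18.2%) were counted as lower and none as higher, against 4.16% and 4.85% of named genes. Pou5f1, which encodes OCT4, stood at 7644 in the control, 13144, 12800.2 and 13995 with NGN-cre and 1465 with DHH-cre, 5.22-fold lower than the control. Tcl1, a kinase coactivator gene of early embryos, stood at 805, 948 to 2127 and 169.9 (-2.24). In both genes the NGN-cre arrays lay above the control and the DHH-cre array below it. Tfap2c differed by -1.26 and Utf1 by -1.07. Dnmt3l, the cofactor of de novo DNA methylation in germ cells, was the only counted gene of 10 DNA methylation genes, at 805 in the control, 995 to 1078 with NGN-cre and 173 with DHH-cre (-2.22). Of 24 oocyte genes, 2 (8.33%) were counted as higher and 2 (8.33%) as lower, against 4.85% and 4.16% of named genes. The transcription factor gene Nobox had 1519 in the control, 12998, 10862 and 6973 with NGN-cre and 5048 with DHH-cre (1.73), so that all knockout arrays were above the control and the DHH-cre array was the lowest among them. Oosp1 differed by 1.26 near background, Nlrp4f by -2.49 and Nlrp14 by -1.43.

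The largest difference of any named gene was the higher value of Serpina3n, an acute-phase serine protease inhibitor gene. It stood at 73.0 in the control, 244, 399.6 and 149 with NGN-cre and 6620.1 with DHH-cre, a 90.7-fold difference. The control value was dim, and with a pseudocount of 50 the log2 difference was 5.76. Among higher genes, Tmem87a, a Golgi membrane protein gene, came next with 483 in the control, 204, 327 and 526 with NGN-cre and 10604 with DHH-cre. In Tmem87a the other 4 arrays overlapped and the DHH-cre array stood apart, whereas for Serpina3n the NGN-cre arrays lay between. Gml2 stood at 447, 1157 to 2132 and 7928 (4.15). Fmr1nb stood at 858, 1735 to 6557 and 9278 (3.44), and the complement regulator gene Cfi at 602, 1226 to 3184 and 5449 (3.18). Tsga10, a sperm tail gene, differed by 3.06 and Tesmin, a testis metal-binding protein gene, by 3.01. For these 5 genes the knockout arrays all exceeded the control and the DHH-cre array was the highest.

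Several bright genes outside the lists were many times dimmer in the DHH-cre knockout. Jakmip1, which encodes a microtubule-binding protein, stood at 16693 in the control, 8559 to 14706 with NGN-cre and 872 with DHH-cre (-4.26). Rnf138rt1, a retrotransposed copy of Rnf138, stood at 9597, 2593 to 6807 and 324 (-4.89), and Plac1 at 6844, 3131 to 4969.7 and 371 (-4.20). For these 3 all knockout arrays were below the control and the DHH-cre array was the lowest. Tnnt2, the cardiac troponin T gene, stood at 27182, 19816 to 27676 and 2347 (-3.53). Slc47a2, a cation exporter gene, stood at 6304, 3562 to 6353 and 530.2 (-3.57), Sh3gl2, the endophilin A1 gene, at 4352, 1751 to 2330.1 and 273 (-3.99), and Enpp2, the autotaxin gene, at 4331, 1939 to 2592 and 289 (-3.91). Atp13a4, a P-type ATPase gene, stood at 2579.9, 812 to 2166 and 111 (-4.54).

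**Figure D4:**
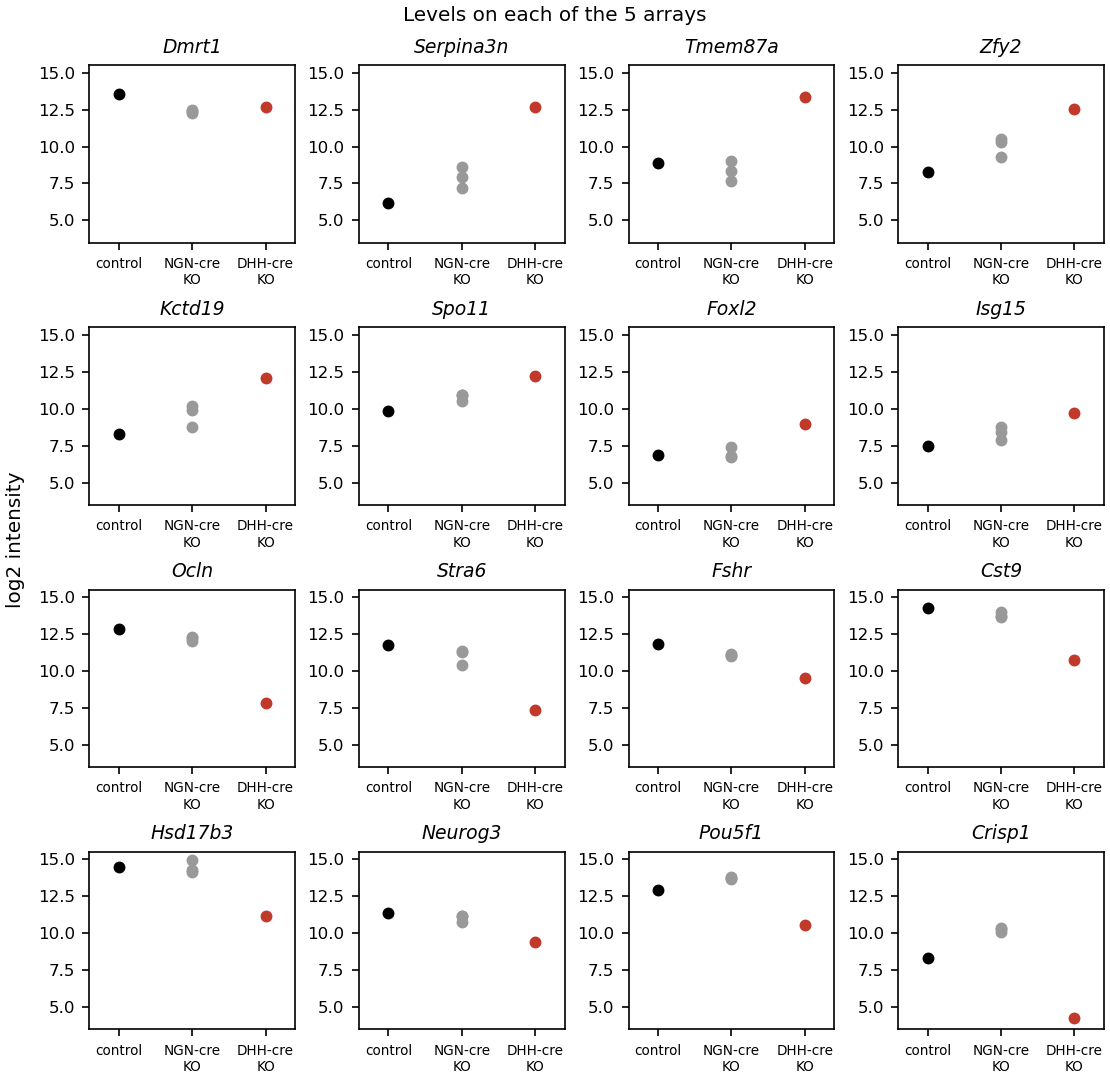
Log2 intensity (y axis) of 16 named genes on each of the 5 arrays, 1 panel a gene. Black is the Cre-negative control, grey the 3 NGN-cre knockouts and red the DHH-cre knockout, and each point is 1 array. Serpina3n and Tmem87a are far higher in the DHH-cre knockout than on any other array, Ocln, Stra6 and Cst9 far lower, and Pou5f1 and Crisp1 lie on opposite sides of the control in the knockouts.

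Interferon-stimulated genes were higher in the DHH-cre knockout. Of 37 on a list written after the values had been seen, 29 had a higher value, with a median of 0.59. Of the 37, 12 (32.4%) were counted as higher and none as lower. For all named genes, 47.9% had a higher value, 4.85% were counted as higher and 4.16% as lower. On the NGN-cre arrays the medians against the same control were 0.35, 0.47 and 0.26. Isg15, a ubiquitin-like modifier, stood at 176 in the control, 238 to 439 with NGN-cre and 828 with DHH-cre (2.23). Rtp4 stood at 859, 989.7 to 1552 and 3642 (2.08), and Ifit1, an RNA sensor gene, at 138, 313 to 391 and 605 (2.13). The DHH-cre array was the highest for all 3. Dhx58, an RNA sensor regulator, differed by 1.88 and Irf7, the transcription factor of the interferon response, by 1.13, and Trim30a was 3.99-fold higher. Of 24 acute-phase, complement and interferon genes 5 (20.8%) were counted as higher and none as lower, against 4.85% and 4.16% of named genes.

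Of 12 genes of antigen presentation on MHC class II, a list drawn up with the values known, 3 were counted as higher and 1 as lower. Among named genes the shares were 4.85% and 4.16%. The list's median was 0.40, and it was 0.37, 0.44 and 0.32 on the NGN-cre arrays against the same control. H2-Eb1 stood at 85.3 in the control, 297, 269 and 487 with NGN-cre and 553 with DHH-cre (2.70), H2-Ab1 at 479.9, 686 to 1027 and 1807 (1.91), and the invariant chain gene Cd74 at 163, 291 to 342 and 553 (1.76). All 4 knockout arrays exceeded the control for these 3. H2-Ob was counted as lower, at 38.8 against 78.1 (-1.01), with the DHH-cre value near background. The summed intensity of 19 macrophage genes was 26330 in the control, 30956 in the DHH-cre knockout and 31230 to 38210 in the NGN-cre knockouts, and H2-Eb1 was the only member counted. The macrophage gene Adgre1 stood at 929.6 in the control and 1580 in the DHH-cre knockout, and Csf1r at 1683 and 2507. The part of macrophage number in these differences was not tested. Of 16 other leukocyte genes, Cd3e, of the T cell receptor complex, was higher at 4509 against 906 (2.32), with 1099 to 2450 in the NGN-cre knockouts, and Cytip was lower at 39.1 against 646, near background in the DHH-cre knockout.

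**Figure D5:**
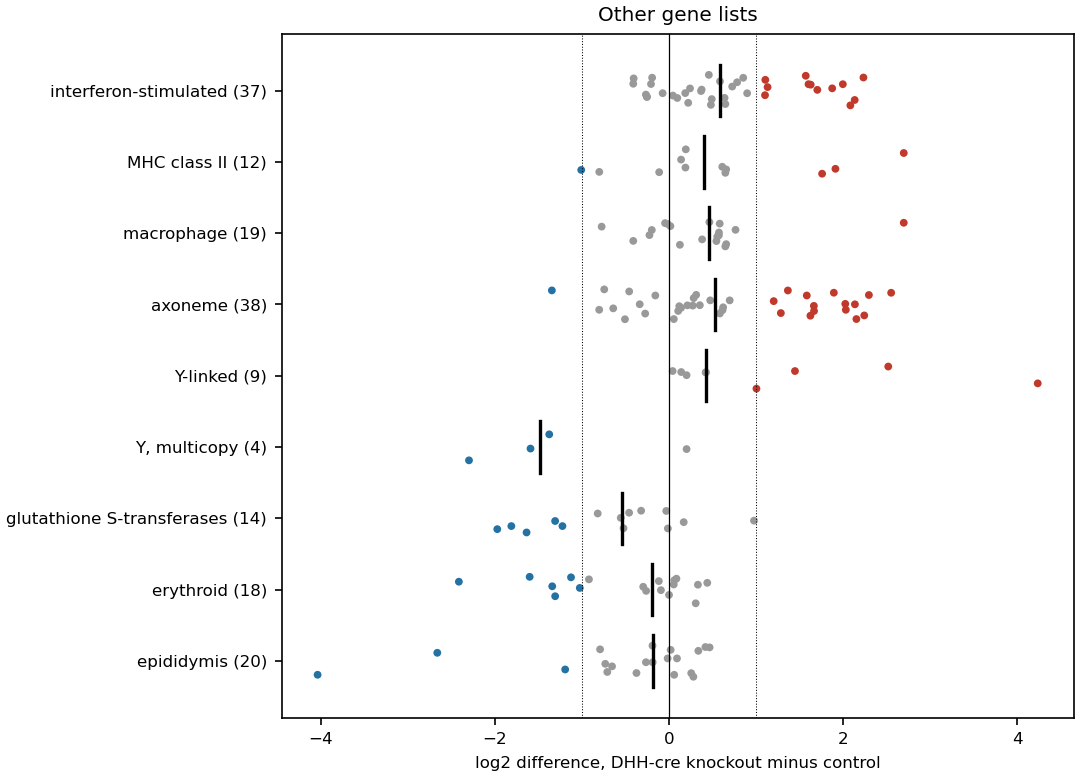
Log2 difference of each measured gene, DHH-cre knockout minus control (x axis), in 9 further lists (y axis, number measured in brackets). Blue points are counted as lower, red points as higher, and grey points are not counted. The black bar is the list's median and dotted lines mark 2-fold. Interferon-stimulated and axoneme genes lie mostly above 0, with medians of 0.59 and 0.53, and 3 of 4 multicopy Y genes lie below -1.

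Lists of erythroid and epididymis genes held counted members on the lower side, while other members were higher. Of 18 erythroid genes 6 (33.3%) were counted as lower and none as higher, against 4.16% of named genes counted as lower, but the list's median was -0.19 and 7 genes had a higher value, among them Epor (0.44) and Tfrc (0.33). Hba-a1, which encodes alpha globin, stood at 27760 in the control, 21050 to 27369 with NGN-cre and 10963 with DHH-cre (-1.34), and Hbb-bt, a beta globin gene with near copies, differed by -1.02. The summed intensity of the list was 55876 in the control, 49921 to 62199 with NGN-cre and 31633 with DHH-cre. Of 20 epididymis genes 3 were counted as lower, with a median of -0.19 and 8 genes with a higher value, among them Svs2 (0.47) and Rnase13 (0.42). These 4 uncounted genes were named after their values had been seen. Crisp1, a secreted protein gene of the epididymis, stood at 311 in the control, 1089, 1284 and 1226 with NGN-cre and 19.0 with DHH-cre, which is below the olfactory receptor median. Defb42 differed by -2.66 and Spink8 by -1.19, and the list's sum was 6813 in the control, 7473 to 10020 with NGN-cre and 3960 with DHH-cre. The duct gene Pax8 was lower at 1157 against 2893 (-1.32).

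Stromal and nerve genes held a few counted members. Postn, which encodes the matrix protein periostin, stood at 7843 in the control, 7963 to 10209.8 with NGN-cre and 1795 with DHH-cre (-2.13), and it was the only counted gene of 22 of the stroma. Among Schwann cell and nerve genes, Gap43, which encodes a growth cone protein, differed by 1.03, while Egr2, also an immediate early gene, differed by -1.76. None of 16 endothelial, 11 peritubular myoid and 24 cholesterol genes was counted. The part of blood, epididymal and nerve tissue in the germ cell and Sertoli cell differences was not tested.

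Glutathione S-transferases of the alpha class were lower, a group picked out after the values had been seen. All 4 Gsta genes were counted, with Gsta3 at 3698 in the control, 1741 to 2166 with NGN-cre and 943 with DHH-cre (-1.97), Gsta1 at -1.81, Gsta2 at -1.64 and Gsta4 at -1.22. The first 3 are alike in sequence. The microsomal gene Mgst3 stood at 4451, 3852 to 3934 and 1799 (-1.31). Of the 4 Sall genes, a family of zinc finger factors also picked out after the values had been seen, 3 were counted as lower, Sall1 at -1.88, Sall4 at -1.72 and Sall3 at -1.26, the last near background. Of 42 beta-defensin genes 5 (11.9%) were counted as lower and none as higher, against 4.16% and 4.85% of named genes. Of 38 Hox genes 31 had a lower value, with a median of -0.40, and 3 (7.89%) were counted as lower, against 4.16% of all named genes. Among 51 Rpl ribosomal protein genes none was counted, although 42 had a lower value, with a median of -0.21. Of all named genes 52.1% had a lower value. None of 47 Psm proteasome genes was counted.

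Cell cycle and stress lists held few counted members. Of 21 mitotic genes, the cyclin gene Ccne2 (1.29) and the checkpoint kinase gene Bub1 (1.02) were counted as higher, with a median of 0.05. That is 9.52% of the list, against 4.85% of named genes. Cdkn1a, which encodes the inhibitor p21, stood at 1745 in the control, 2675 to 3573 with NGN-cre and 828 with DHH-cre (-1.08), and the p53 target Phlda3 differed by -1.05, whereas Perp, another target, stood at 1368 against 384 (1.83). Of 18 immediate early and heat shock genes, Egr2 and Dusp1 (-1.06) were counted as lower. Of 16 genes of glucose and lactate supply, 15 had a lower value, against 52.1% of named genes, and Pdk1 (-1.10) was counted. None of 14 reference genes was counted, and their median was -0.02.

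Neighbouring genes counted in the same direction formed 12 runs of at least 3. The longest held 6 genes on the Y chromosome, among them Ssty1 and Sly, all lower, with differences of -1.37 to -2.60. Also on the Y chromosome, Ddx3y, Usp9y and Zfy2 formed a run of higher genes. Further runs of higher genes were Magea2, Magea5 and Magea1, then Trim30b, Trim30a and Trim30d, and also Fam228a, Fam228b and Pfn4. Hoatz, Btg4 and Pou2af1 formed another, in which the control values were near background. Eya1, a transcription factor gene of organ development, headed a run with Msc and Trpa1 and stood at 717 in the control, 868 to 1049 with NGN-cre and 2581 with DHH-cre (1.85). Runs of lower genes were Plaat1, Atp13a5 and Atp13a4, and Ddah2, Mpig6b and Ly6g6c. Members of the Magea, Trim30 and Sly runs are close copies and may share probes.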

How the data were processed

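RNA was isolated with TRIzol, cleaned on RNeasy MinElute columns, checked on a Bioanalyzer and hybridised to NimbleGen mouse expression arrays with Cy3, per the labels' protocols. The deposited table holds linear intensity values, and RMA (background correction, quantile normalization and probe summary) is named, without a version, per the submitters' processing notes. Such values hide shifts in total RNA and compress dim differences. From them log2 was taken, with no pseudocount and no further normalization (Python 3.11.15, pandas 2.3.3, numpy 2.4.6; statsmodels 0.14.6 for lowess).

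Identifiers were matched to RefSeq of GRCm38.p6, which named 17780 of 25631 rows (17277 genes), and 7851 rows stayed unnamed. Where a gene had several rows, the one with the highest mean over the arrays was used, and for 24 counted genes the rows disagreed. A transcript was counted at a difference of at least 2-fold that exceeded the range of the 3 NGN-cre arrays. The number of arrays limits the precision, and the labels do not say that samples came from separate animals.

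Named genes are Dmrt1, the 15 largest counted differences each way, the 10 largest with a dimmer side of log2 at least 8, up to 8 counted members of each list (or the 2 largest differences), counted members of symbol families and runs, and marker genes of cell types. Predicted and clone names were counted but not named. The 39 lists (737 symbols, 669 measured), the families and the rule were chosen with earlier results of these data known, and 5 more lists and 11 families were added after these values had been seen. Alternatives were a pseudocount of 50, renewed quantile normalization, lowess centring, a filter on dim transcripts (log2 under 7), a 4-fold threshold, no range condition, the mean of all rows of a gene, and each NGN-cre array left out.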

Additional observations from a re-analysis of the deposited data

Results flagged for a closer look

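For 10 of the genes named by the rule and counted, the DHH-cre array lay on one side of the shared control and all 3 NGN-cre arrays on the other. The difference between the knockouts was not tested, and both are set against the same control array. Among 9 genes that were lower in the DHH-cre knockout and higher in the NGN-cre knockouts, the differences were -4.04 for Crisp1, -2.38 for Pou5f1, -2.30 for Sly, -2.24 for Tcl1, -2.22 for Dnmt3l, -2.13 for Postn, -1.19 for Spink8, -1.08 for Cdkn1a and -1.03 for Izumo1. Ifi44, an interferon-stimulated gene, ran the other way, at 1.70 in the DHH-cre knockout and -0.33, -0.37 and -0.07 in the NGN-cre knockouts.

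The NGN-cre side was far from the control in some of these genes and close to it in others. It lay at 1.81 to 2.04 for Crisp1, 2.39 to 3.27 for Spink8, 0.74 to 0.87 for Pou5f1 and 0.62 to 1.03 for Cdkn1a. For Postn (0.02, 0.09 and 0.38) and Sly (0.29, 0.14 and 0.01) the smallest NGN-cre difference was close to 0, so the side of the control could turn with a small error. The DHH-cre values of Crisp1 and Sly and the control value of Ifi44 were near the background level of olfactory receptor transcripts.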

How the results depend on the processing

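The counts over all transcripts, 1422 higher and 1232 lower, changed most with the threshold and the scale. At least 4-fold with the same range condition, 222 were higher and 173 lower. With a pseudocount of 50, 998 were higher and 779 lower. Repeated quantile normalization gave 1444 and 1219, lowess centring 1515 and 1160, the filter on dim transcripts 1217 and 1049, and no range condition 1477 and 1275. Leaving out 1 NGN-cre array in turn gave 1440 to 1463 higher and 1245 to 1269 lower. Leaving out an array or the range condition can only add calls, so no call could be lost there. The share of higher calls ran from 53.6% to 56.6%. Under the pseudocount 15 counted genes fell below 2-fold, among them Stra8, Ddx3y, Izumo1, Utf1, Irf7, Phlda3, Gap43, Oosp1, Adh7, Spink8 and Dmrtc1b, under repeated quantile normalization Ddx3y and H2-Ob did, and under lowess centring H2-Ob did. None of the 170 named genes reversed its direction under the alternatives run. The pseudocount and the filter cannot change a sign, and the mean of rows leaves a gene with 1 row as it was. Their outcome was therefore fixed for most genes. The pseudocount shrank 38 of the 170 named genes by more than the SD of their log2 values on the 3 NGN-cre arrays, such as Serpina3n to 5.76 and Crisp1 to -2.39. This follows from its construction for dim values. The mean of all rows moved Dmrtc1a to -2.58. With the filter on dim transcripts, the medians of the granulosa and oocyte lists turned to -0.03 and -0.18.

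No paired analysis was possible because the labels carry no replicate numbers and each side of the comparison holds 1 array. Neither the DHH-cre array nor the control can be left out for the same reason, so the spread within each is unknown. Folds with a side near background are uncertain in size.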
